A study of Mus musculus with 6 samples.

Results

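Mouse bone marrow mesenchymal cells seeded at low density were followed over 3 days. All arrays that the labels call sparse were taken, 1 each from days 1, 2 and 3 after seeding, which is 3 of the 6 arrays of the study. Each sparse culture had received 15000 cells; the remaining 3 arrays came from dense cultures of 2500000 cells on the same days, a seeding ratio of 167, and serve here as background. All cultures held cells extracted from mouse marrow, grown in a commercial stem cell medium and described as independent cell samples, with no strain, age, passage or allele stated; the number 21 in every title is not explained. Total RNA was read on Affymetrix arrays, and the design sets dense beside sparse profiles over 3 successive days. Every gene change below is a difference between single arrays, so no test could be made, no replicate error is known, and "higher" or "lower" means at least 2-fold (a log2 difference of at least 1). Culture age, the cultures themselves and the arrays cannot be told apart. In bulk RNA, more cells of a kind and more RNA per cell cannot be told apart either.

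Mesenchymal stromal cells are the adherent, fibroblast-like cells of marrow that make matrix, feed blood-forming cells and can become bone, fat or cartilage. After plating, such cells attach, spread, enter division and build a matrix of collagens and matricellular proteins, which tune how cells hold on to it. They also answer inflammatory signals through NF-kB, a family of transcription factors held in the cytoplasm by IkB inhibitor proteins, several of whose targets are its own subunits and inhibitors.

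The labelled cell type was set against its markers. All 12 stromal markers passed the filter on low values, and none lay under the array median on all 3 sparse days. Vim, a mesenchymal intermediate filament, read 12.13, 12.22 and 12.27 on the log2 scale on sparse days 1, 2 and 3, and the collagen chain Col1a2 10.79, 11.34 and 11.59. Eng (CD105) was close to the array median, at 4.52, 4.35 and 4.30. Of the markers of other cell types, 5 of 10 for macrophages and leukocytes, 4 of 7 for granulocytes, 3 of 6 for endothelium, 4 of 6 for erythroid cells and megakaryocytes and 4 of 6 for lymphocytes passed the filter. Those of granulocytes, endothelium and lymphocytes were under the array median on every sparse day. None of these other markers changed 2-fold in the sparse cultures between day 1 and day 3. Of them, 4 lay above the array median on all 3 sparse days: the macrophage coreceptor Cd14 (4.65, 5.06 and 5.18), the macrophage marker Cd68 (4.72, 4.69 and 4.57), the haemoglobin gene Hba-a1 (between 4.88 and 5.20) and the platelet integrin Itga2b (4.79, 4.80 and 4.74). Their part in the results was not tested. Epithelial markers were not part of this count. Among 15 keratin and epithelial junction genes kept, 7 lay under the array median on all sparse days. Krt8 lay above it on each (4.90, 5.38 and 5.76), and Krt19, given below, alone passed 2-fold. Array medians were 4.34, 4.37 and 4.45 on sparse days 1 to 3, against 4.33, 4.38 and 4.42 on dense days 1 to 3.

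Most genes moved little in the sparse cultures, and more genes passed 2-fold in the first step than in the second. Of 16762 genes, 46 (0.274%) were higher and 84 (0.501%) lower on day 2 than on day 1. From day 2 to day 3 the counts were 28 (0.167%) higher and 18 (0.107%) lower. Over the whole period, 137 (0.817%) were higher and 221 (1.32%) lower on day 3 than on day 1. The median absolute change was 0.174 on the log2 scale for the first step, 0.140 for the second and 0.216 for day 3 over day 1, where 95% of genes lay between −0.83 and 0.71.

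The median of all probe sets was 0.11 higher on sparse day 3 than on day 1 and the 75th percentile 0.09 lower, so the split between directions depends on the scale. With every array shifted to the same median, 96 genes were higher and 336 lower on day 3 than on day 1 (22.2% higher, against 38.3% as deposited). For day 3 over day 2 that shift gave 19 higher and 26 lower (42.2% higher, against 60.9% as deposited).

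In dense cultures more genes passed 2-fold, and more of them at the second step. There 369 genes (2.2%) were higher and 481 (2.87%) lower on day 3 than on day 1. The first dense step held 173 (1.03%) higher and 44 (0.262%) lower genes, the second 174 (1.04%) higher and 286 (1.71%) lower. The sparse arrays of days 1, 2 and 3 differed at least 2-fold from the dense day 1 array in 732, 520 and 443 genes, a falling number. From the dense array of their own day they differed in 732, 1204 and 1566 genes. The median absolute log2 difference from the dense day 1 array did not fall in that way. It was 0.268, 0.258 and 0.276 for sparse days 1, 2 and 3, largest on day 3.

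**Figure D1:**
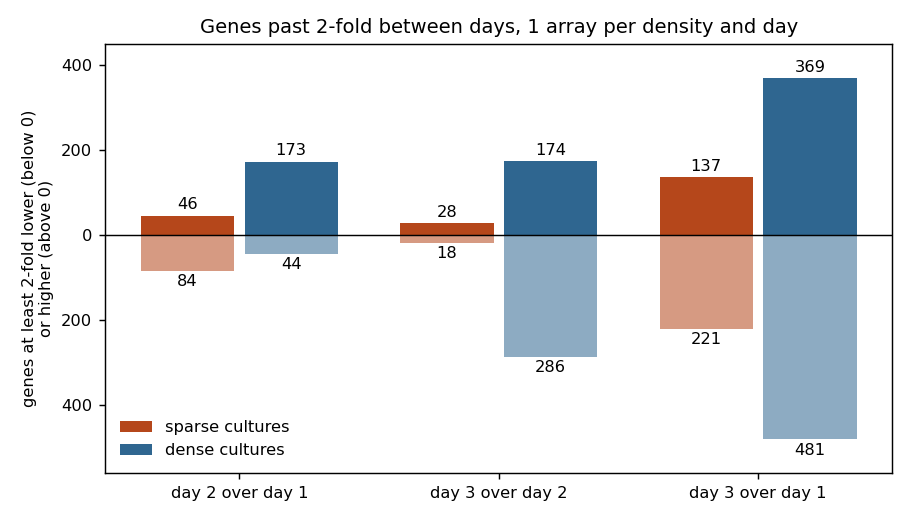
Number of genes at least 2-fold higher (above 0) or lower (below 0) between days, for sparse and dense cultures, with 1 array per density and day and no error to draw. In sparse cultures the first step holds 46 higher and 84 lower genes and the second 28 and 18; in dense cultures the second step holds 286 lower genes.

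Of the 221 lower genes, 206 went down at both steps, and in 181 the first step was the larger; a median of 67.2% of their change was complete by day 2. For the 137 higher genes the same counts were 129 and 91, with 65.2%. The 2-fold cut itself favours agreement of the steps, since a step the other way requires the other step to pass 2-fold alone. The gene with the largest change that the naming rule allowed was Akr1c18, which in mice encodes the enzyme that inactivates progesterone. It read 9.10 on day 1, 5.33 on day 2 and 5.06 on day 3, a 16.4-fold decline of which nearly all fell in the first step. Rgs16, which shortens G protein signalling, instead went down evenly through 9.81, 8.07 and 6.37 (10.9-fold). On dense days 1 to 3 Akr1c18 read 9.60, 9.38 and 8.20 and Rgs16 6.90, 6.91 and 7.43.

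Several of the named lower genes encode secreted proteins. The siderophore-binding acute phase protein Lcn2 read 7.22, 3.87 and 3.84, the last values lying under the array medians, so its 10.4-fold size is uncertain. Saa3, another acute phase protein with near-identical relatives, read 6.71, 3.56 and 4.02, also with low later values. Both were under the array median by day 2. The gelatinase Mmp9 kept most of its signal until day 2, with 8.87, 8.08 and 5.90, and then lost 4.52-fold in 1 day. The collagenase Mmp13 fell earlier, with 6.12, 4.10 and 3.81. Decorin, Dcn, a proteoglycan that binds collagen fibrils, read 8.66, 7.86 and 6.53 and was thus lower while collagen chains were not.

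Further named genes of this kind have varied roles. Cdkn1a (p21), the inhibitor of cyclin-dependent kinases, read 7.81, 5.57 and 4.92 on sparse days 1, 2 and 3, a 7.38-fold decline. Ramp3, a partner of the calcitonin-like receptor, declined 7.34-fold, and Serpinb2, an inhibitor of plasminogen activators, 7.08-fold. Ass1, which makes the precursor of arginine, declined 6.62-fold by its brighter probe set, and its second probe set gave −2.74 on the log2 scale. Upp1, which splits uridine, was 6.02-fold lower. Adhesion and guidance were represented by Sema7a, a membrane-anchored semaphorin (9.14, 7.90 and 6.97), and by Parvb, a parvin of focal adhesions (7.80, 6.63 and 5.75). The interleukin 33 receptor Il1rl1 was 4.32-fold lower, ending under the array median, and the redox enzyme Glrx 4.1-fold lower. In all of these every later array read lower than the one before it, as the rule that picked them required.

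**Figure D2:**
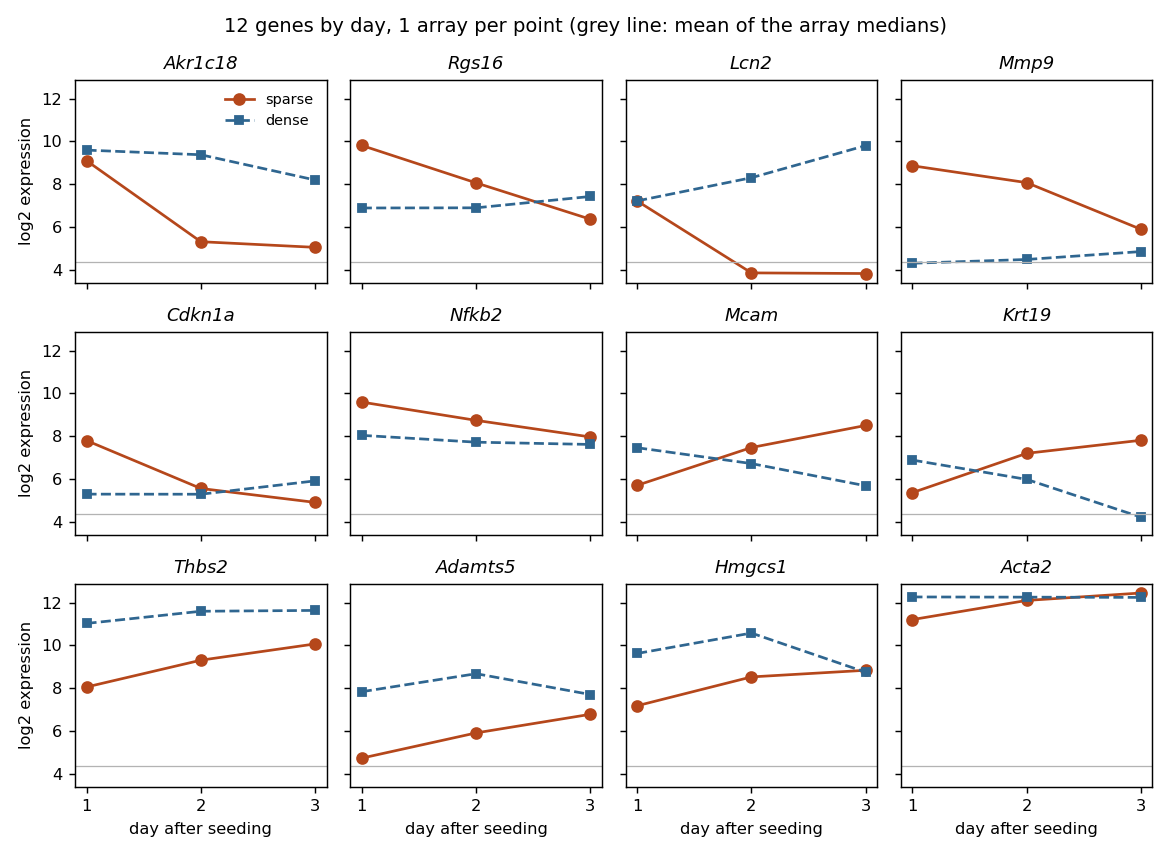
Log2 expression of 12 genes on days 1, 2 and 3, sparse (circles, solid line) and dense (squares, dashed line), 1 array per point, with the mean of the array medians in grey. Akr1c18 and Lcn2 reach their low sparse level by day 2, Mmp9 only by day 3, and the sparse lines of Mcam and Krt19 climb while the dense ones go down.

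The NF-kB genes had the lowest sparse median of the 51 lists. Of 18 subunit, inhibitor and feedback genes, all measured above the filter, 5 were lower on sparse day 3 than on day 1 and 0 higher, and 16 of 18 lay below 0, with a median of −0.64 against −0.01 for all genes. The subunit gene Nfkb2 read 9.60, 8.75 and 7.97 on sparse days 1, 2 and 3 (3.09-fold lower). The inhibitor gene Nfkbie read 7.28, 6.82 and 5.85 (2.68-fold lower), and Nfkbia, which encodes IkB alpha, 9.30, 8.45 and 8.02. The lower genes thus include a subunit and inhibitors. Traf1, an adaptor of TNF receptors, read 5.46, 4.02 and 3.43 and ended under the array median, and Tnfaip2, induced by TNF, read 7.72, 6.80 and 6.27. Relb, another subunit, had −0.80 and Rela −0.61, both short of 2-fold. In dense cultures 0 of the 18 passed 2-fold in either direction and the median was −0.04.

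Promoter stretches of 3 of these genes are shown because they carry matches to the kB consensus, the sequence that NF-kB dimers bind. The kB consensus, searched on both strands from 250 bases before to 50 after each RefSeq start, was found in 8 of the 14 listed genes that have a promoter entry (57.1%) and in 5.14% of 27025 genes. The list was made of NF-kB subunits, inhibitors and feedback genes, a kind that includes known NF-kB targets, so this contrast is no independent result. Here and in the later searches a gene counted if any of its starts had a match. Capitals mark the matches. The Nfkb2 stretch lies at chr19:46304648-46304736 on the plus strand of GRCm38.p6 and holds 3 matches, of which the first and second overlap. The Nfkbia stretch lies at chr12:55492648-55492726 on the minus strand and the Nfkbie stretch at chr17:45555544-45555653 on the plus strand, each with 1 match. A match is a description of the letters and no evidence of binding in these cells.
Nfkb2: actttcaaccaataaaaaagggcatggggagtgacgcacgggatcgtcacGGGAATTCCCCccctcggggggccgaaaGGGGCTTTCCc
Nfkbia: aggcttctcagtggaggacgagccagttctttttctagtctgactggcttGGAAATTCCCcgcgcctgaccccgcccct
Nfkbie: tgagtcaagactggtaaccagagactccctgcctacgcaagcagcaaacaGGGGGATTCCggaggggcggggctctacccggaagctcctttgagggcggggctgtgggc

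Chemokine, cytokine and complement lists had sparse medians below 0, each smaller in size than that of the NF-kB list. Among 16 chemokine genes 2 were lower and 0 higher (median −0.24). Ccl5, a lymphocyte attractant, read 7.02, 5.52 and 5.60, reaching its lower level by day 2, while the membrane-bound chemokine Cxcl16 went down at both steps (6.19, 5.04 and 4.31). Among 13 cytokine and prostaglandin genes 2 were lower (median −0.27), Il1rl1 and the prostaglandin E synthase Ptges, with 8.18, 7.32 and 6.89. Ptgs2, the inducible cyclooxygenase upstream of Ptges, had −0.63 and did not reach 2-fold. Of 16 complement and acute phase genes 3 were lower and 0 higher (median −0.29), against 0 lower and 8 higher in dense cultures (median 0.96). Serping1, the C1 inhibitor, read 4.69, 3.77 and 3.12 in sparse cultures and 5.64, 7.46 and 7.70 in dense cultures; its later sparse values were under the array medians. Interferon response genes showed no 2-fold change in 20 members as deposited and 1 lower gene with equal medians, and their median of 0.04 changed sign with the scale.

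Mcam (CD146), an adhesion molecule of perivascular stromal cells, had the largest named rise: 5.72, 7.48 and 8.51 on sparse days 1, 2 and 3, which is 6.92-fold. In dense cultures Mcam read 7.47, 6.73 and 5.70, so the sparse array was the lower on day 1 and the higher on days 2 and 3. Krt19, a keratin of simple epithelia, crossed in the same way, with 5.38, 7.21 and 7.82 in sparse against 6.90, 5.99 and 4.23 in dense cultures. Nrp1, the coreceptor for semaphorins and VEGF, read 6.17, 7.43 and 7.98 in sparse cultures, against 7.91, 7.69 and 5.97 in dense cultures. Edn1, the vasoconstrictor endothelin 1, was 3.48-fold higher on sparse day 3 than on day 1, with 5.91, 7.29 and 7.71.

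Other named genes on this side had varied roles. Thbs2, a matricellular thrombospondin, read 8.07, 9.31 and 10.07 (4.02-fold). The proteoglycan-cleaving proteases Adamts5 (4.75, 5.92 and 6.79) and Adamts1 (5.11, 6.34 and 6.94) climbed at both steps. All 3 came nearer to their dense day 1 values, which were 11.03 for Thbs2, 7.85 for Adamts5 and 7.69 for Adamts1. Ptn, a heparin-binding growth factor, climbed mainly at the second step (5.08, 5.76 and 6.91), and Efemp1, an elastic fibre protein, mainly at the first (4.02, 5.48 and 5.86, with day 1 under the array median). Npr3, the clearance receptor for natriuretic peptides, and Fhl1, a LIM-domain protein of muscle, were each 3.51-fold higher. So was Cyp1b1, an oestrogen-metabolising P450, but its second probe set gave −0.49 on the log2 scale, so its direction is uncertain. Galntl4, of the enzymes that start O-glycosylation, was 5.92-fold higher, the engulfment receptor Megf10 3.28-fold, and the nucleosome-binding Hmgn5 3.23-fold with a day 1 value under the array median.

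Matrix lists had medians above 0, and most of their members stayed within 2-fold. Over all genes 0.817% were higher and 1.32% lower on sparse day 3 than on day 1. The collagen and matricellular lists held larger shares of higher genes than that. Of 20 collagen chain genes 2 were higher on sparse day 3 than on day 1, 0 were lower, and the median was 0.41, with 17 above 0. Col5a2, a chain of fibril-nucleating collagen V, read 8.35, 9.38 and 9.78, and the fibrillar Col3a1 6.32, 7.39 and 7.62. Of 18 fibronectin and matricellular genes 4 were higher and 0 lower (median 0.42): Thbs2, Postn, Wisp1 and Ctgf. Postn (periostin) waited until the second step, with 9.29, 9.54 and 10.49. Ctgf read 10.79, 11.62 and 11.82 in sparse cultures, 2.05-fold higher on day 3 than on day 1 and just short of 2-fold (0.93) when the arrays were set to the same median; in dense cultures it read 11.52, 10.19 and 8.95. Among 23 proteoglycan and elastic fibre genes only Efemp1 was higher and Dcn lower (median 0.25).

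Matrix proteases split instead of moving one way. Of 17 proteases and TIMPs, 2 were higher, both ADAMTS genes, and 5 lower, with a median of 0.15. The lower ones were Mmp9, Mmp13, the stromelysins Mmp10 (6.10, 4.79 and 4.21) and Mmp3, and the inhibitor Timp1. Mmp10 and Mmp3 resemble each other. Mmp10 ended under the array median, and Mmp3 lay under it on every sparse day, so the size of its change is uncertain. Timp1, which blocks metalloproteases, read 11.35, 10.48 and 10.31. Of 11 plasminogen activation genes, Serpinb2 and the urokinase gene Plau were lower (median −0.22); Plau read 8.35, 7.53 and 7.33 and was short of 2-fold (−0.92) after quantile normalisation. Among integrins, Itgb5 (8.39, 9.25 and 9.51) and the collagen receptor Itga11 (4.59, 4.47 and 5.71) were higher. Itga2, another collagen receptor, ended lower under the array median, and the laminin receptor Itga6 was lower at −1.02 (−0.93 after quantile normalisation). The hyaluronan synthase Has2 (8.27, 7.58 and 7.11) and the hyaluronan receptor Cd44 (8.76, 8.13 and 7.68) both fell.

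Contractile genes leaned upward in the sparse cultures. Of 20 genes, 4 were higher and 0 lower, 16 lay above 0, and the median was 0.52, against 0 higher, 3 lower and −0.39 in dense cultures. With arrays set to the same median 4 sparse genes were higher and 1 lower. Acta2, smooth muscle actin and the usual mark of myofibroblasts, read 11.21, 12.10 and 12.45 in sparse cultures, against 12.26, 12.25 and 12.24 in dense cultures. Cnn1 (calponin) read 8.02, 8.84 and 9.40 on sparse days 1, 2 and 3 and Tpm2 (a tropomyosin) 7.87, 8.76 and 9.07. Actg2 closely tracked Tpm2, with 7.84, 8.71 and 9.01. The CArG box, the element that serum response factor binds, was found in 4 of 17 promoters of this list (23.5%, against 1.81% of all). These were Cnn2, Myl9, Vcl and Srf, and none of these 4 passed 2-fold. Only exact matches within 300 bases per start were read, so the absence of a match in other members says nothing about the factor. Its part in the changes was not tested.

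Cholesterol synthesis genes had the highest median of all lists, and most of their change came early. Of 25 genes, 4 were higher already on day 2 and 6 on day 3 relative to day 1, 0 were lower, and 22 lay above 0 over the whole period. The median was 0.63 for day 2 over day 1 and 0.09 for day 3 over day 2, so the list moved almost wholly in the first step. Hmgcs1, which makes the HMG-CoA that the pathway starts from, read 7.19, 8.54 and 8.84 on sparse days 1, 2 and 3. Cyp51, a sterol demethylase, read 6.96, 8.23 and 8.55, and Insig1, the sterol sensor that restrains the pathway, 7.96, 9.03 and 9.12. Stard4, a cholesterol carrier, was 2.29-fold higher, Sqle (squalene epoxidase) had 1.06 and Lss (lanosterol synthase) 1.07. With arrays set to the same median these had 0.95 and 0.96, which left 4 genes higher. In dense cultures the list had a median of 0.82 for day 2 over day 1 and −1.38 for day 3 over day 2, with 22 genes lower at that second step, where 0 were lower in sparse cultures.

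The Hmgcs1 promoter is shown because it alone, of 17 promoters of the cholesterol list (5.88%), held the sterol regulatory element searched as TCACNCCAC on both strands; 1.44% of all genes held it at a listed start. The stretch lies at chr13:119690164-119690272 on the plus strand of GRCm38.p6, from RefSeq, with the match in capitals.
Hmgcs1: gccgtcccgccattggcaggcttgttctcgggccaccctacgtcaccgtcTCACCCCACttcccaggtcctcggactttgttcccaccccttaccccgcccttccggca
The absence of these letters elsewhere in the list says nothing about the factor, since only 300 bases per start were read.

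Other metabolic and stress lists moved less. Of 17 endoplasmic reticulum chaperone and unfolded protein genes, 2 were higher and 16 lay above 0 (median 0.36). The chaperone Hspa5 (BiP) read 10.20, 11.21 and 11.45, and the disulphide isomerase Pdia6 9.59, 10.50 and 10.78. Of 19 ATF4 amino acid stress genes only the pseudokinase Trib3 was higher, at 1.02 (0.91 when arrays were set to the same median), and the list median was 0.19, against 15 higher and 1.54 in dense cultures. Slc7a11, the cystine importer, read 6.90, 5.58 and 5.96 in sparse cultures. It also belongs to the NRF2 and glutathione list, where 1 of 18 genes was lower (median −0.38): Hmox1, haem oxygenase 1, with 10.73, 9.89 and 9.54. Fatty acid synthesis, oxidative phosphorylation, lysosome and ribosome biogenesis genes had no 2-fold change between sparse day 1 and day 3, with medians of 0.01, 0.15, 0.12 and −0.16; the first of these changed sign with the scale. Among the 25 hypoxia and glycolysis genes, the prolyl hydroxylase Egln3 alone was lower (6.37, 5.43 and 5.19).

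**Figure D3:**
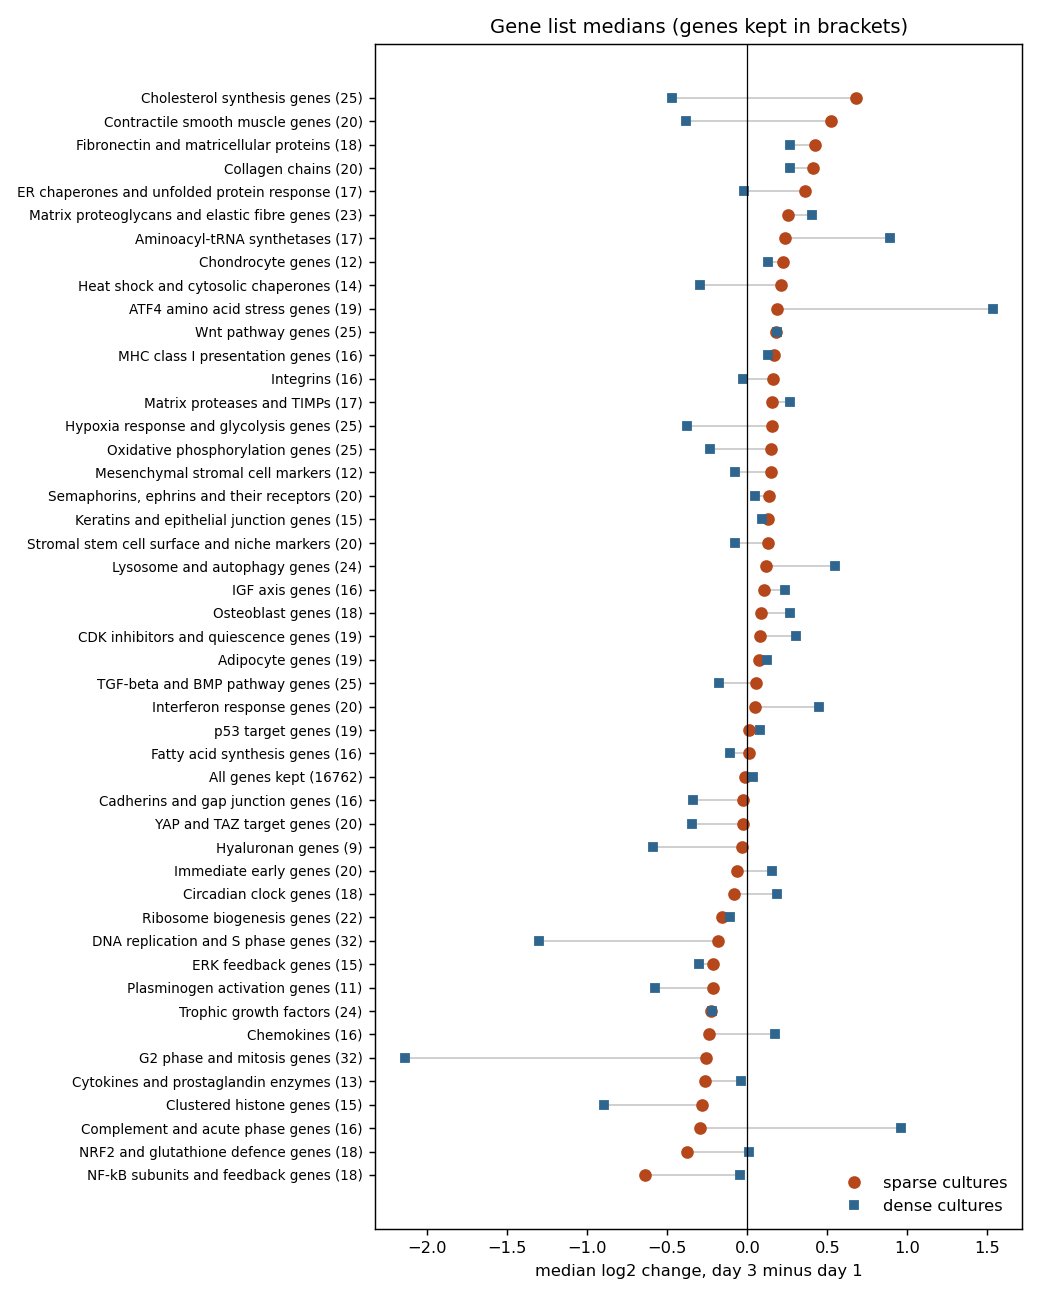
Median log2 change from day 1 to day 3 of each gene list with at least 8 genes kept, sparse (circles) and dense (squares), with the number of genes kept in brackets. NF-kB genes lie lowest in sparse cultures (−0.64) and cholesterol genes highest (0.68), while the mitosis list is far lower in dense (−2.14) than in sparse cultures (−0.26).

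Cell division genes stayed within 2-fold in the sparse cultures as deposited, as did nearly all genes. None of 32 replication genes and none of 32 G2 and mitosis genes changed 2-fold by day 3. Over all genes 0.817% were higher and 1.32% lower, so 0 of 32 is near the overall share. The medians of the replication and mitosis lists were −0.19 and −0.26, with 24 and 25 members below 0. Of all 16762 genes, 8706 lay below 0. With arrays set to the same median, 1 gene of each list was lower. Foxm1, the transcription factor of the mitotic programme, read 8.43, 7.89 and 7.79 in sparse cultures, against 7.96, 7.17 and 5.86 in dense cultures. In dense cultures 23 of the replication genes and 31 of the mitosis genes were lower on day 3 than on day 1, with medians of −1.30 and −2.14. Of 15 clustered histone genes kept of 17 measured, 3 were lower in sparse cultures, among them Hist1h1a with 11.58, 10.43 and 10.24. All 15 lay below 0, with a median of −0.29, close to that of the mitosis list. In dense cultures all 15 lay below 0 as well, 7 were lower and the median was −0.90. Probe sets for these genes can read near-identical copies. Besides Cdkn1a, the list of CDK inhibitors and quiescence genes moved both ways: Cdkn1c (p57) read 6.25, 7.02 and 7.73 and the growth arrest ligand Gas6 4.52, 5.44 and 5.78, both higher, while Txnip, an inhibitor of thioredoxin, was lower with 8.05, 7.20 and 6.43. The median of that list, 0.08, changed sign with the scale. Of 19 p53 target genes Cdkn1a alone passed 2-fold, and that median, 0.01, also changed sign.

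**Figure D4:**
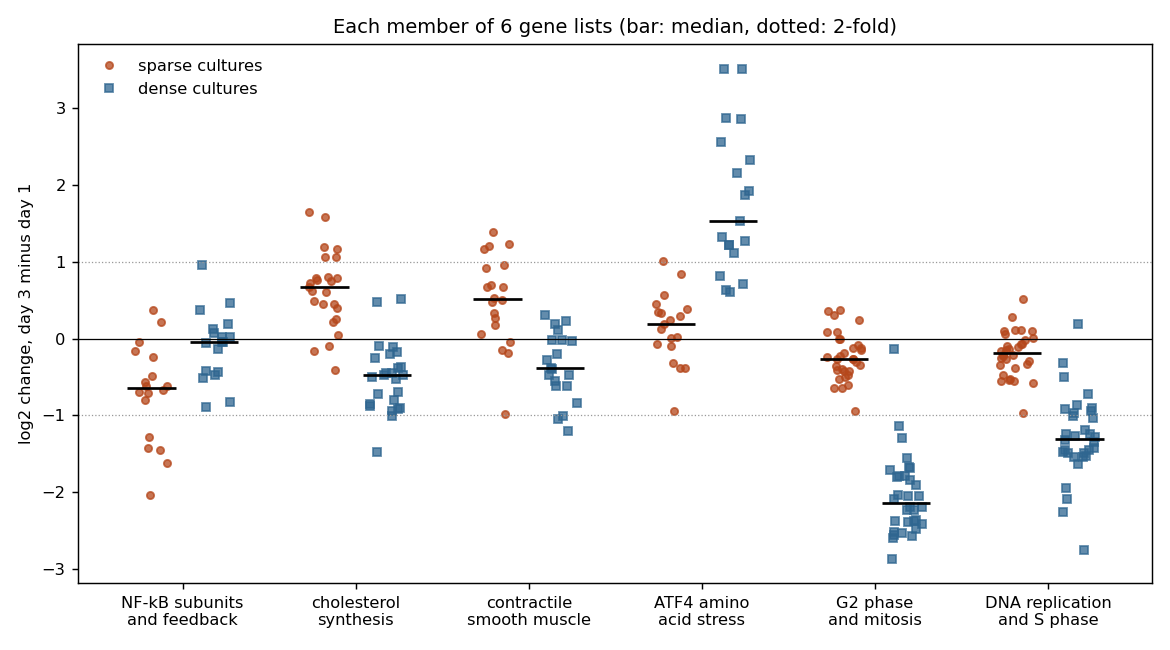
Log2 change from day 1 to day 3 of each gene kept in 6 lists, sparse (circles, left) and dense (squares, right); black bars are medians and dotted lines mark 2-fold. As deposited, sparse replication and mitosis genes all lie within 2-fold, whereas 31 of 32 mitosis genes lie under −1 in dense cultures.

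Signalling lists held a few strong members. In the ERK feedback list the phosphatase Dusp5 was lower (8.82, 7.80 and 7.21) and 11 of 15 genes lay below 0 (median −0.21), with Spry4 at −0.96 and Dusp6 at −0.88. Of 20 immediate early genes, Fosl1 alone passed 2-fold (2.01-fold lower, and −0.93 on the log2 scale after quantile normalisation). Trophic factors leaned down, with the EGF receptor ligand Ereg (7.06, 5.68 and 5.50) and the lymphatic growth factor Vegfc (7.78, 7.47 and 6.64) lower among 24 genes (median −0.23). In the IGF axis, the binding protein Igfbp4 was 4.01-fold lower (7.87, 6.81 and 5.86) and Igfbp7 2.58-fold higher (9.18, 10.14 and 10.55); the glycoprotein hormone Stc1 was 3.35-fold lower, with later values under the array median. Tgfb1 was lower (7.01, 6.09 and 5.90) and Id2, a target of BMP signalling, higher (6.88, 7.73 and 8.29). The medians of the IGF (0.11) and TGF-beta and BMP (0.06) lists changed sign with the scale. In the Wnt list the secreted Dkk3 was 2.77-fold higher and 19 of 25 genes lay above 0 (median 0.18). Dense cultures gave the same count and median, and 9 of the 25 lay under the array median on all sparse days. YAP and TAZ targets had a median of −0.03, whose sign also depended on the scale, and Ctgf as the 1 member past 2-fold as deposited. With arrays set to the same median Ctgf had 0.93, and Areg alone passed 2-fold, as a lower gene (−1.10, against −0.997 as deposited).

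Most lineage genes stayed within 2-fold, as did most genes of any kind. Over all genes 0.817% were higher and 1.32% lower on sparse day 3 than on day 1. Of 18 osteoblast genes only Tnfrsf11b, the decoy receptor osteoprotegerin, was higher (5.85, 6.92 and 7.11), and of 19 adipocyte genes only the lipid carrier Fabp5 (7.97, 8.93 and 9.04, with 0.96 for day 3 over day 1 when arrays were set to the same median). Their medians of 0.08 and 0.07 changed sign with the scale. Pparg, the master regulator of fat cells, read 5.91, 6.14 and 6.81. None of 12 chondrocyte genes passed 2-fold (median 0.22). Among stromal surface and niche genes, Mcam and the niche transcription factor Foxc1 (5.59, 6.53 and 6.75) were higher, and Nt5e (CD73; 6.18, 5.66 and 4.69) and Cd44 lower. Both lower genes also belong to the stromal markers used for the label. The clock repressor Nr1d1 was lower (8.76, 7.49 and 7.13) and Nfil3 higher (6.09, 7.31 and 7.30) among 18 clock genes; the hour of collection is not given in the sources used here.

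The first step held several changes that were complete by day 2. Psme2, a proteasome activator subunit, read 7.07, 8.55 and 8.72, with 0.75 for day 3 over day 1 by its second probe set. Fam198b read 5.46, 6.93 and 7.13. Ptpn22, a phosphatase known from lymphocytes, read 4.90, 3.10 and 3.07, the last values being under the array medians. On day 3 these lay 1.13-, 1.15- and 1.02-fold from their day 2 values.

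At the second step other genes passed 2-fold. The related surface proteins Ly6c1 (5.99, 5.62 and 7.04) and Ly6c2 (4.61, 4.09 and 5.54), whose probe sets can read each other, were higher on day 3 than on day 2. So were Itga11, given above, and the peptidase Mme (CD10; 4.04, 3.98 and 5.13). On dense day 3 Ly6c1 read 9.49, Ly6c2 7.67, Itga11 8.74 and Mme 8.98, all above their sparse values. Krtap5-2 (5.39, 5.15 and 6.76) and Csprs (3.73, 3.85 and 5.39) belong to families of near-identical copies. On the lower side, the mast cell and basophil protease Mcpt8 read 6.81, 6.35 and 5.30. Slfn3 read 10.22, 10.42 and 9.26, with −0.58 for day 3 over day 2 when its probe sets were averaged, and Zfp607, a zinc finger gene, 4.39, 4.99 and 3.93.

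Day 2 was seldom an extreme by 2-fold or more. Only 46 genes passed 2-fold from day 2 to day 3 in sparse cultures, so few could meet that cut. In sparse cultures 0 genes (0%) were at least 2-fold higher on day 2 than on both other days and 2 (0.0119%) at least 2-fold lower, against 24 (0.143%) and 2 (0.0119%) in dense cultures. One of the sparse genes was Aldh1l2, a mitochondrial folate enzyme, with 7.31, 5.79 and 6.90. The other, Dcpp1, read 4.30, 3.27 and 4.31, lay under the array median throughout, fell outside the naming rule and was picked after its values were seen. Below 2-fold, the largest day 2 dips after Aldh1l2 were in Cbr2, a carbonyl reductase (4.85, 3.93 and 4.90), the amino acid transporter Slc7a3 (5.03, 4.08 and 4.93), Lrrc61, F2rl3 and Tnn. The largest day 2 crests were in Fgl2 (4.53, 5.39 and 4.52), Cyp2d40 (3.95, 4.78 and 4.01), Micall2, the cyclooxygenase Ptgs1 (6.81, 7.51 and 6.91), the inositol transporter Slc5a3 and Zfp607.

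Most genes past 2-fold in sparse cultures stayed within 2-fold in dense cultures, but overlap in either direction was above the share over all genes. Of the 137 genes higher on sparse day 3 than on day 1, 7 were higher in dense cultures (5.11% of the sparse genes and 1.9% of the dense ones) and 26 lower (19.0% and 5.41%), and their dense median was −0.28. Of the 221 lower genes, 31 were lower in dense cultures (14% and 6.44%) and 11 higher (4.98% and 2.98%), with a dense median of −0.17. The shares over all genes in dense cultures were the 2.2% higher and 2.87% lower given above, and each share of the sparse genes was larger. Serpinb2 and Sema7a were lower in both densities, with −2.82 and −2.17 in sparse and −1.95 and −1.56 in dense cultures. Mmp9 and Ass1 had −2.96 and −2.73 in sparse cultures, against 0.54 and −0.10 in dense cultures, where both read at most 4.97 on every day.

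**Figure D5:**
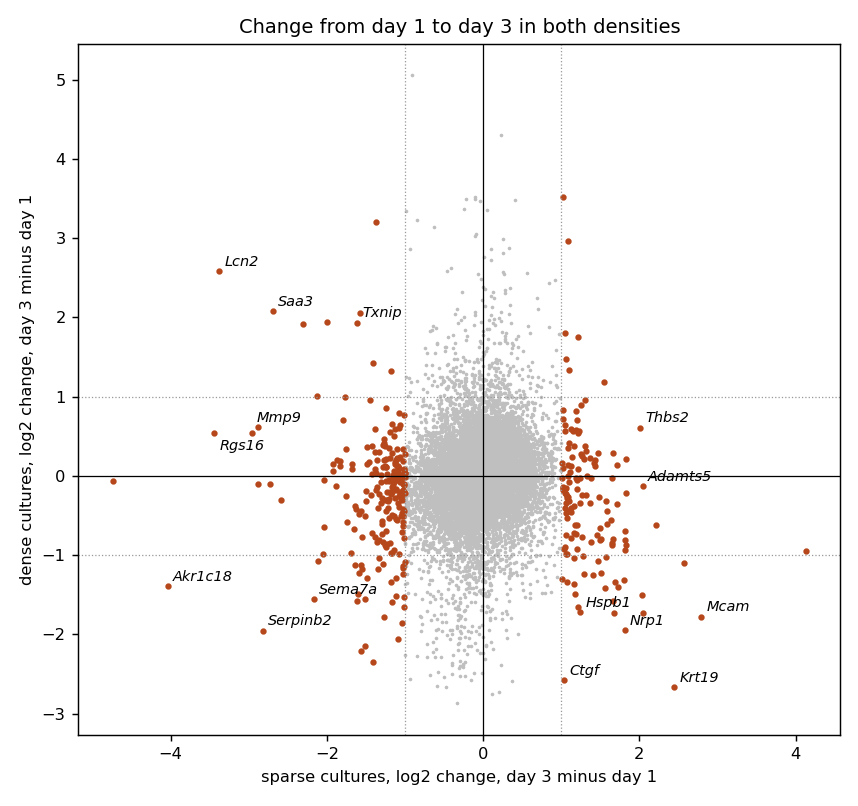
Log2 change from day 1 to day 3 of 16762 genes in sparse (horizontal) and dense (vertical) cultures; genes past 2-fold in sparse cultures are coloured and dotted lines mark 2-fold. Krt19 (2.44 in sparse, −2.66 in dense) and Lcn2 (−3.38 in sparse, 2.58 in dense) lie in opposite corners.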

How the data were processed

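Cells of mouse bone marrow were profiled on Affymetrix arrays, 1 per density and day. The log2 values, 1 per probe set and array, are those deposited by the authors; RMA and Partek, without a version, stand in the submitters' processing notes. Which array model, background correction and annotation release were used is not given in the sources used here. Such values compress differences near background, so folds of dim genes are understated. Groups came from the labels. Gene symbols for 25917 of 35556 probe sets came from the authors' deposited table, of which 6 columns of per-sample values were not used.

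Of 22349 symbols, 1954 had several probe sets of which the brightest on average over the 6 arrays stood for the gene. Genes averaging at least the 25th percentile (3.32) were kept, 16762 in all. Python 3.11.15, numpy 2.4.6 and pandas 2.3.3 gave differences of log2 values and counts past 2-fold, with no test and no p-value; the steps were checked on simulated data. Precision is limited by the number of arrays. The 3 day comparisons share arrays: an error of the day 2 array enters both steps with opposite sign.

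Named genes had a highest sparse value at or above the median of that array. They were the 15 largest changes each way of day 3 over day 1 with both steps that way, the 8 largest each way for each step, the 6 highest and 6 lowest on day 2, up to 4 of each of 51 gene lists by size of change, and cell type markers. Numbered models, clones, olfactory and vomeronasal receptors, small RNAs and pseudogenes were counted but not named by this rule; Mmp3, Timp1, Nfkbia, Rela, Relb, Sqle, Lss, Cnn2, Myl9, Vcl, Srf and Dcpp1 were named beside it after their values were seen. A few genes picked by the rule are not reported here. The cultures described and the lists were chosen with earlier results of these data known. Alternatives were other scalings, filters, probe set rules and thresholds. Promoters came from RefSeq, build GRCm38.p6.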

Additional observations from a re-analysis of the deposited data

Results flagged for a closer look

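In 13 of the 241 genes picked by the naming rule, the sparse and the dense arrays moved in opposite directions at both steps. Each changed by at least 2-fold over the period in both densities. Many of the 241 were picked for the size of their sparse change, and this count over all genes was not made. Among all 16762 genes kept, 26 were 2-fold higher in sparse and lower in dense cultures, and 11 the reverse, whatever their single steps. Each density has 1 array per day, and the difference was not tested. Higher on sparse day 3 than on day 1 and lower in dense cultures were 9 of the 13. The adhesion molecule Mcam had a log2 change of 2.79 in sparse cultures, against −1.78 in dense cultures. Galntl4 had 2.57 in sparse and −1.10 in dense cultures, and the keratin Krt19 2.44 and −2.66. The coreceptor Nrp1 had 1.81 in sparse and −1.95 in dense cultures. The nucleosome-binding Hmgn5 had 1.69 in sparse and −1.34 in dense cultures, and Fam198b 1.67 and −1.73. Id2, an inhibitor of helix-loop-helix factors, had 1.41 in sparse and −1.25 in dense cultures. The small chaperone Hspb1 had 1.24 in sparse cultures, against −1.72 in dense cultures, and 0.86 in sparse cultures as the mean of its probe sets. The matricellular Ctgf had 1.04 in sparse and −2.58 in dense cultures, and 0.93 in sparse cultures with arrays set to the same median.

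The other 4 were lower in sparse and higher in dense cultures. The C1 inhibitor Serping1 had −1.57 in sparse cultures, against 2.06 in dense cultures, and Txnip −1.61 and 1.93. Igfbp4 had −2.00 in sparse and 1.94 in dense cultures, and Lcn2 −3.38 and 2.58. The later sparse values of Serping1 and Lcn2 were under the array medians.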

How the results depend on the processing

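No paired analysis was possible because no result here comes from a test: the changes are differences between single sparse arrays of different days. Under other scalings, filters and probe set rules the counts of genes past 2-fold stayed within 1.5 times, except these: with arrays set to the same median 336 genes were lower on sparse day 3 than on day 1, and with a filter at the median of all named genes 14 were higher on day 3 than on day 2. The 2 genes lowest on day 2 became 1 with equal medians, 1 after quantile normalisation, 1 with the median filter, and 0 at 3-fold. At 1.5-fold, 395 were higher and 570 lower on day 2 than on day 1, 187 and 171 on day 3 than on day 2, 697 and 1143 on day 3 than on day 1, and 20 highest and 12 lowest on day 2. At 3-fold the counts were 6 and 14, 2 and 4, and 30 and 42. No named gene change past 2-fold changed direction. The named gene changes compared under the alternatives included some under 2-fold. Of their values 2024 stayed on the same side of 2-fold, 14 dropped under it and 19 passed it. Medians of 11 lists changed sign under some alternative, all of 0.106 or less in size as deposited. Signal near background limits the folds of dim genes.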

Other observations

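The 2 largest sparse changes among all genes kept belonged to small nucleolar RNAs, which guide RNA modification and which the naming rule left out; they were picked after their values were seen. Snora44 read 10.46, 6.36 and 5.72 on sparse days 1, 2 and 3, against 6.28, 6.05 and 6.21 on dense days 1, 2 and 3. Its high value thus came from 1 array. Snord116, a family of near-identical copies, read 2.77, 5.68 and 6.90 in sparse cultures, against 4.66, 4.52 and 3.71 in dense cultures, and its sparse day 1 value was under the array median.

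Semaphorin and ephrin genes moved both ways in sparse cultures, with 1 higher and 2 lower of 20. Beside Nrp1 and Sema7a, the guidance cue Sema5a was 2.43-fold lower on day 3 than on day 1. Among 16 cadherin, protocadherin and gap junction genes the protocadherin Pcdh7 alone passed 2-fold, with 7.95, 7.09 and 6.29 in sparse cultures, against 7.32, 7.26 and 6.64 in dense cultures. The gap junction gene Gja1 read 8.39, 8.71 and 8.79 in sparse cultures. Of 14 heat shock genes Hspb1 alone was higher, and none of 17 aminoacyl-tRNA synthetase genes passed 2-fold (median 0.23, against 0.89 in dense cultures).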
